A study of Mus musculus with 22 samples.

Results

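Aortas of mice without estrogen receptor alpha (ERaKO) that carried an estradiol (E2) pellet were compared, gene by gene, with aortas of mice without estrogen receptor beta (ERbKO) under the same hormone. These are 6 of the 22 arrays of the series: 3 ERaKO E2 arrays and 3 ERbKO E2 arrays, chosen by their labels. Each array held the RNA of 1 aorta. The other arrays are 3 ERaKO placebo, 3 ERbKO placebo, 5 WT (wild-type) E2 and 5 WT placebo aortas. They serve here to show how the 6 arrays stand without hormone and with both receptor genes. All mice were ovariectomised C57BL/6 females, 2.5 to 4.5 months old, and the pellets had been in place for 7 to 8 days. All groups therefore share the loss of the ovaries, and neither the alleles of the knockouts nor the dose of the pellets is stated in the labels.

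Estrogen receptors alpha (gene Esr1) and beta (gene Esr2) are nuclear receptors that bind estradiol and then act as transcription factors, on DNA directly or through other factors. An aorta without alpha still has the Esr2 gene, and an aorta without beta still has Esr1. The comparison thus sets the loss of one receptor against the loss of the other under the same hormone. Both receptors have been described in the vascular wall, where endothelial cells line the vessel, smooth muscle cells form its middle layer, and fibroblasts and fat surround it.

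Values are log2 signals of Affymetrix probe sets as the authors normalised them. A difference of 1 is a doubling, and every difference given without another name is ERaKO E2 minus ERbKO E2. Probe sets had to exceed a log2 signal of 4 on 3 or more arrays of the 22, and 20410 probe sets, of 10260 named genes, did. It was called when its p-value from limma, adjusted over all tested probe sets by the Benjamini-Hochberg method, was under 0.05. Errors beside differences are standard errors (SE) of that fit, and those beside means are standard deviations (SD). A gene read by several probe sets is represented by its brightest one, averaged over all arrays, unless another is named.

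Of the 20410 probe sets, 47 were called (0.23%), 17 of them higher in ERaKO E2 (0.0833%) and 30 lower (0.147%). Before adjustment, p was under 0.05 for 1782 probe sets with a positive difference and 497 with a negative one. Of named genes it was under 0.05 for 1036 with a positive difference and 234 with a negative one, for 496 and 515 after median centring, and for 613 and 407 after quantile normalisation. Of named genes, 10 were called higher (0.0975%) and 16 lower (0.156%) by the probe set that stands for them. Counting a gene by any of its probe sets gave 14 higher and 18 lower genes, and 5 called probe sets carry no single gene name. On all 47 called probe sets the 3 ERaKO E2 arrays lay apart from the 3 ERbKO E2 arrays, against 14.8% of all tested probe sets. The table as a whole leaned one way: the median difference of all tested probe sets was 0.13, and it was -0.06 after the arrays were centred on their medians and 0.01 after quantile normalisation. The calls then split into 13 higher and 42 lower with median centring, and into 15 and 37 with quantile normalisation. Arrays correlated across tested probe sets with r of 0.950 to 0.959 within ERaKO E2, of 0.963 to 0.983 within ERbKO E2 and of 0.939 to 0.977 between the groups, so that some pairs across the groups were more alike than any pair within ERaKO E2.

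The count rested on single arrays. It was 100 without ERaKO E2 1, 20 without ERaKO E2 2 and 26 without ERaKO E2 3. It was 95 without ERbKO E2 1, 26 without ERbKO E2 2 and 21 without ERbKO E2 3. Of the 47 probe sets, 15 were called in each of these 6 removals, and they include probe sets of Mmd2, Ano4, Vldlr, Stc1, Hrct1, Tiparp, Ghr and Esr1.

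**Figure D1:**
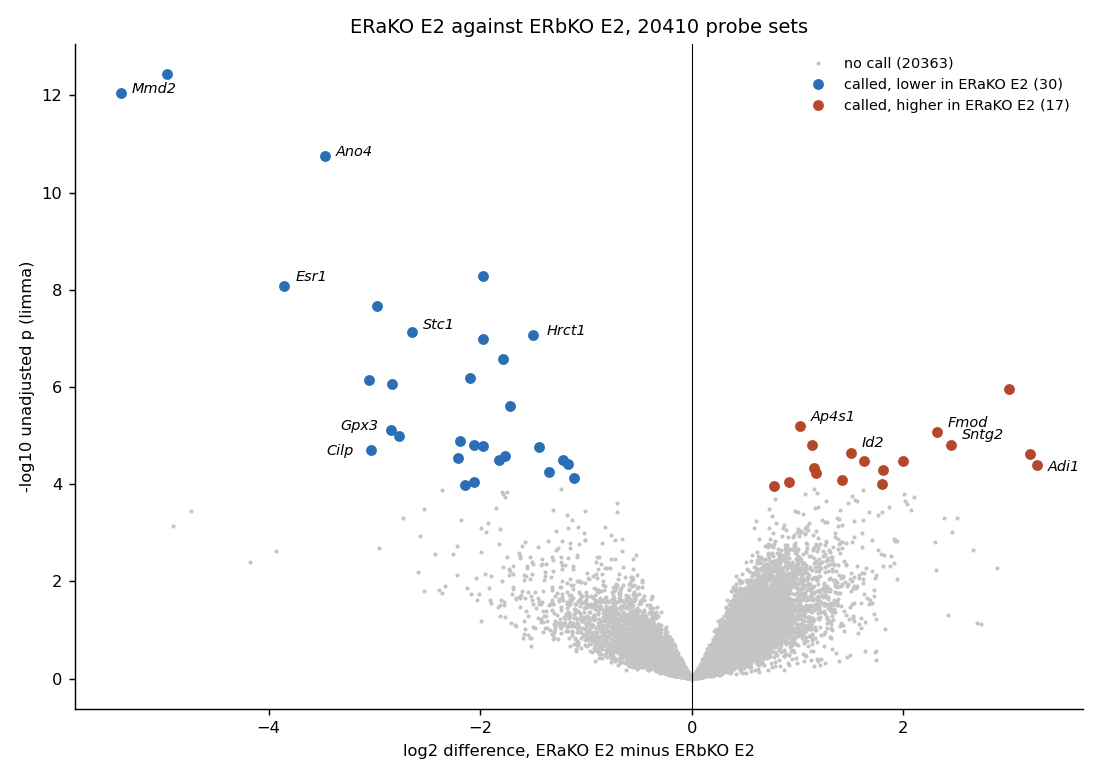
Each of the 20410 tested probe sets is a point, with the log2 difference ERaKO E2 minus ERbKO E2 across and -log10 of the unadjusted limma p upwards. The 30 called lower probe sets (blue) reach -5.40 for Mmd2, and the 17 called higher ones (red) reach 3.27 for Adi1.

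The genes called lower in ERaKO E2 that held in every removal include 4 whose start-site regions are printed here. Mmd2 and Ano4 were taken for the size of their differences, and Vldlr for its 6 called probe sets, all but 1 of which held. Hrct1 was taken as an example of a stretch that holds the half-site. The sequences are the 250 bases before the annotated start, 5′ to 3′ on the gene's strand, from RefSeq (build GRCm38.p6). They lie at chr5:142608753-142609002 (minus strand) for Mmd2, chr10:89257791-89258040 (minus strand) for Ano4, chr4:43726948-43727197 (plus strand) for Hrct1 and chr19:27216234-27216483 (plus strand) for Vldlr, where the first of the entries for that gene is shown. Capitals mark GGTCA or TGACC, the half-site of the estrogen response element.
Mmd2: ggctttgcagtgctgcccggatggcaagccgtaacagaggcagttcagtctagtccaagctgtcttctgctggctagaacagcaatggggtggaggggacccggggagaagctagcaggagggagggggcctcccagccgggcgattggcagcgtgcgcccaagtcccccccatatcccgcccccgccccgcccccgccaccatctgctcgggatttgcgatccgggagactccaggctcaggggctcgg
Ano4: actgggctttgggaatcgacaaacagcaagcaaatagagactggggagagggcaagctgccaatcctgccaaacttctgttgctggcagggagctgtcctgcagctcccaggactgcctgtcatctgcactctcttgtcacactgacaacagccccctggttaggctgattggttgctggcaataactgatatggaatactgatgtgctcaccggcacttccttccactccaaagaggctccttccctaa
Hrct1: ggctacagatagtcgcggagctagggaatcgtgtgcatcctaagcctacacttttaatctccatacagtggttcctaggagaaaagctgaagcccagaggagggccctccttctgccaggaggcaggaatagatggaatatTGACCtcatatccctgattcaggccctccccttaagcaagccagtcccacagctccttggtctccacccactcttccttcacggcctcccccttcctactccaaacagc
Vldlr: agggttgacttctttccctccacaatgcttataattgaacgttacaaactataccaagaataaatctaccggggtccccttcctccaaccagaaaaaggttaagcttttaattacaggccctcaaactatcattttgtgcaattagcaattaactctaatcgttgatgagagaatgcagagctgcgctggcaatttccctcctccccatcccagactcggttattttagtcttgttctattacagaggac
Only the Hrct1 stretch holds a half-site, and none of the 4 holds the full palindrome, GGTCA and TGACC with 3 bases of any kind between them. In the table's 300-base windows (250 bases before the start and 50 after), 14 of the 18 genes with a called lower probe set had an entry, and 5 of these genes held a half-site (35.7%). Of the 14 genes with a called higher probe set, 12 had an entry and 6 held one (50%). Of all 27025 genes of the table, 43.6% held one. The full palindrome was in none of the entries of the called genes and in 23 of all 32851 entries. Both strands were searched, and each full palindrome also counts as holding half-sites. Such a match describes the letters of a window, and no binding was measured.

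Mmd2, whose product belongs to the PAQR family of membrane proteins, had the largest difference among the named genes tested. Its log2 signal was 3.06, 2.98 and 3.41 in ERaKO E2 aortas, against 8.55, 7.80 and 9.28 in ERbKO E2 aortas. All 3 ERaKO E2 arrays sat below the log2 value of 4 used as the floor of the filter, and all 3 ERbKO E2 arrays far above it. The difference was -5.40 ± 0.33 (SE, n = 3 each, limma adjusted p = 8.99e-09). A further Mmd2 probe set gave -2.97 ± 0.33 (adjusted p = 7.48e-05). With placebo Mmd2 was 3.69, 4.23 and 4.22 in ERaKO aortas, against 4.01, 3.90 and 4.49 in ERbKO aortas, and these arrays overlapped.

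Ano4, of the anoctamin family of membrane proteins, was 2.50, 2.46 and 2.61 in ERaKO E2 aortas, against 6.44, 5.49 and 6.04 in ERbKO E2 aortas. The ERaKO E2 arrays lay at the level of the knockout placebo arrays, which were between 2.38 and 2.62 in both knockouts. The difference was -3.47 ± 0.25 (SE, n = 3 each, limma adjusted p = 1.22e-07). Because the lower signals of Mmd2 and Ano4 are at the bottom of the scale, their true differences may be larger than these. A probe set with no gene name in the annotation showed the same form, at 3.72, 3.90 and 3.73 in ERaKO E2 and 8.61, 9.09 and 8.54 in ERbKO E2, a difference of -4.96 ± 0.29 (adjusted p = 7.51e-09).

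Stc1 encodes stanniocalcin 1, a secreted glycoprotein hormone. It was 4.34, 5.41 and 4.82 in ERaKO E2 aortas, against 6.82, 8.08 and 7.59 in ERbKO E2 aortas. The highest ERaKO E2 array remained more than 1 log2 unit below the lowest ERbKO E2 array. The difference was -2.64 ± 0.32 (SE, n = 3 each, limma adjusted p = 0.000219). Hrct1, which encodes a small membrane protein, was 3.05, 3.01 and 3.13 in ERaKO E2, against 4.55, 4.78 and 4.35 in ERbKO E2, a difference of -1.50 ± 0.18 (adjusted p = 0.000222). In ERaKO E2 aortas both genes lay near their placebo values, which the plot of values by array shows for Stc1.

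Vldlr encodes the very low density lipoprotein receptor, which takes up lipoproteins and also binds reelin. It was read by 6 probe sets, all called lower, with differences between -3.05 and -1.78. Among these, 1 kept its call in only 1 of the 6 removals (highest limma adjusted p = 0.14), and the others kept theirs in all 6. The brightest gave 10.64, 10.57 and 10.74 in ERaKO E2, against 12.48, 12.86 and 12.52 in ERbKO E2. The arrays of each knockout lay close together, and the difference was -1.97 ± 0.24 (SE, n = 3 each, limma adjusted p = 0.00023). Tiparp, a poly-ADP-ribose polymerase induced by the aryl hydrocarbon receptor, was 7.05, 6.30 and 6.39 in ERaKO E2, against 8.57, 8.71 and 8.74 in ERbKO E2. Its difference was -2.09 ± 0.29 (adjusted p = 0.00121), and the groups lay apart by more than the range of either.

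Ghr encodes the growth hormone receptor. It was 9.85, 10.31 and 10.14 in ERaKO E2, against 11.16, 11.35 and 11.31 in ERbKO E2, by its brightest probe set. The difference was -1.17 ± 0.22 (SE, n = 3 each, limma adjusted p = 0.0222), and it held its call in 1 of the 6 removals. Another Ghr probe set gave -1.72 ± 0.26 (adjusted p = 0.00332) and kept its call in all 6. Without ERbKO E2 2, the removal with the highest adjusted p for the brightest probe set, that p was 0.137.

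**Figure D2:**
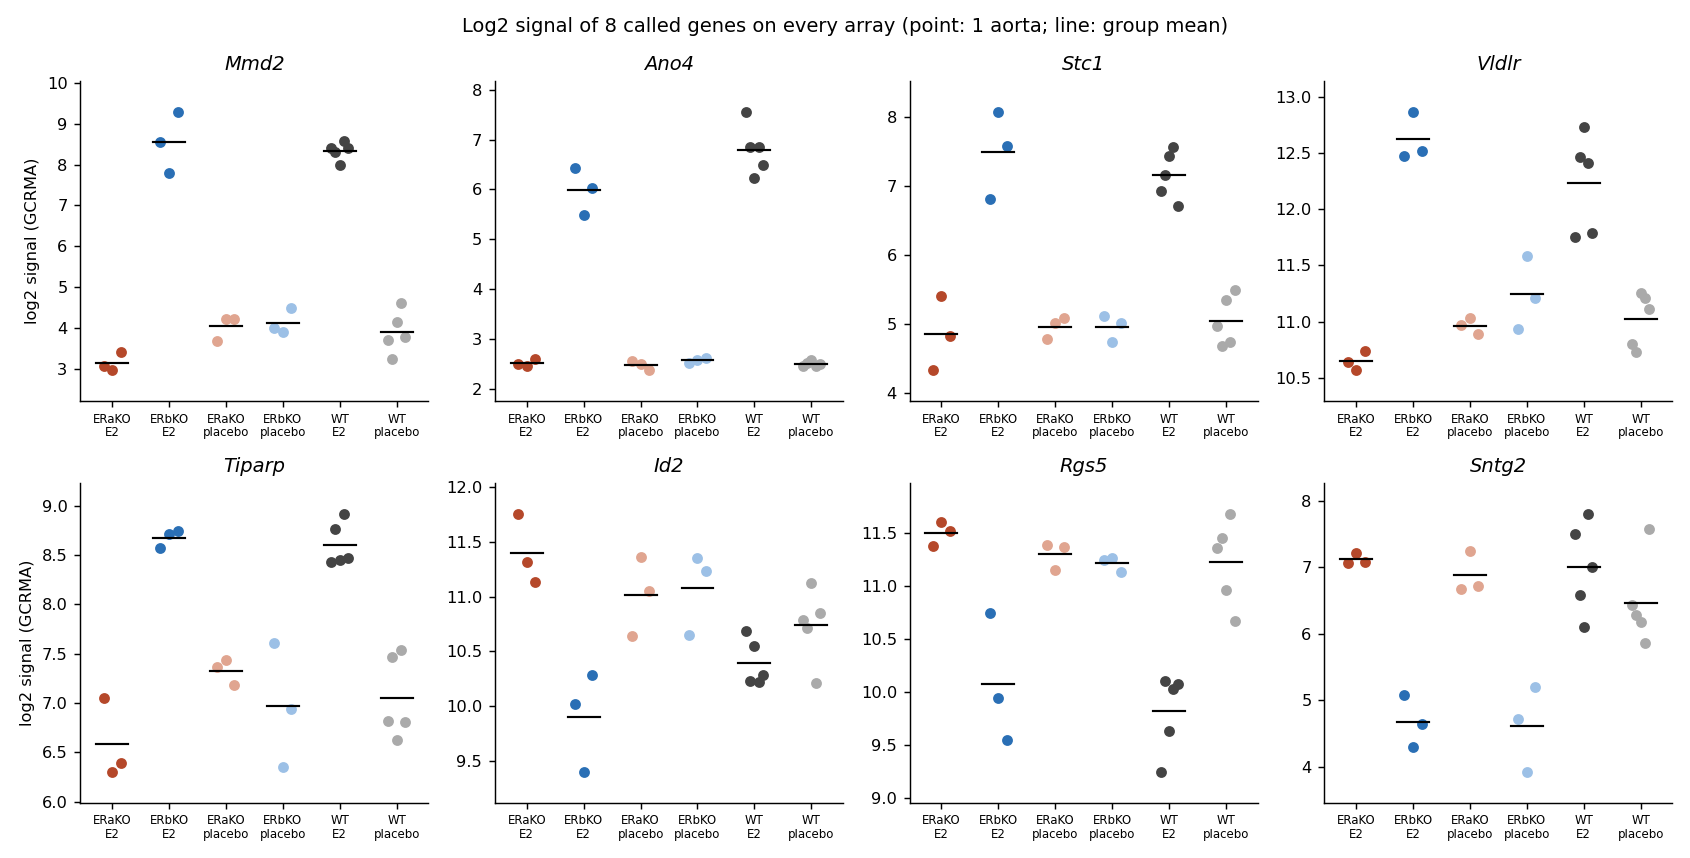
Log2 signal on every array for Mmd2, Ano4, Stc1, Vldlr, Tiparp, Id2, Rgs5 and Sntg2, with a point per aorta and a line at the group mean (3 arrays in each knockout group, 5 in each WT group). For the first 5 genes the ERaKO E2 points lie near or below the placebo points, while ERbKO E2 and WT E2 points lie above them; Sntg2 is low in ERbKO aortas with either pellet.

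Esr1 itself read lower in the aortas that the labels name ERaKO. Its brighter probe set read 5.43, 5.36 and 3.48 in ERaKO E2, against 8.35, 8.87 and 8.61 in ERbKO E2, a difference of -3.85 ± 0.40 (SE, n = 3 each, limma adjusted p = 3.41e-05). The same probe set differed by -3.74 with placebo (adjusted p = 0.000278). Where the probe lies relative to the deleted part of the gene is not given in the sources used here. Esr2 did not pass the filter, with its probe set between 2.34 and 2.72 on all 22 arrays. The arrays therefore hold no check of the ERbKO label, and no Esr2 signal above the filter's value in any group. Pgr, the progesterone receptor gene, read 8.32, 8.29 and 8.89 in ERaKO E2, against 8.96, 9.43 and 8.62 in ERbKO E2. Its arrays overlapped, and the difference was -0.51 ± 0.41 (adjusted p = 0.674).

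Of genes of redox and steroid metabolism, 3 were called lower. Gpx3, the secreted glutathione peroxidase, was 9.76, 8.33 and 10.60 in ERaKO E2, against 12.64, 11.84 and 12.72 in ERbKO E2. The ERaKO E2 arrays spread over more than 2 log2 units and still lay below every ERbKO E2 array. The difference was -2.84 ± 0.47 (SE, n = 3 each, limma adjusted p = 0.00915). Of 33 tested antioxidant genes Gpx3 was the one called, against 0.156% of all named genes called lower. Gclc, the catalytic subunit of glutathione synthesis, had -1.08 ± 0.27 (adjusted p = 0.139).

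Akr1c14, an aldo-keto reductase that acts on steroids, was 7.84, 8.19 and 7.05 in ERaKO E2, against 10.41, 10.51 and 10.48 in ERbKO E2. The 3 ERbKO E2 arrays lay close together, and the difference was -2.77 ± 0.47 (SE, n = 3 each, limma adjusted p = 0.0112). Akr1cl, of the same family, was 3.20, 3.37 and 2.54 in ERaKO E2, against 4.86, 4.50 and 5.04 in ERbKO E2, a difference of -1.76 ± 0.32 (adjusted p = 0.0189). These were the 2 called genes among 17 tested genes of aldo-keto and steroid metabolism, against 0.156% of all named genes called lower. The list's median difference was -0.02. All 3 calls depended on single arrays. Gpx3 lost its call without ERaKO E2 2 or ERbKO E2 3 (highest adjusted p = 0.0713). Akr1c14 lost it without ERaKO E2 3, ERbKO E2 2 or ERbKO E2 3 (highest 0.0917), and Akr1cl without ERaKO E2 3 or ERbKO E2 3 (highest 0.132).

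Vwf, the von Willebrand factor gene of endothelial cells, was 9.15, 9.22 and 8.87 in ERaKO E2, against 10.16, 10.35 and 10.38 in ERbKO E2. The difference was -1.22 ± 0.23 (SE, n = 3 each, limma adjusted p = 0.02), and the 2 sets of arrays lay well apart. It was the one called gene of 27 tested endothelial markers, against 0.156% of all named genes called lower. The median difference of the markers was -0.04. Pecam1, which marks endothelial cells in general, differed by -0.15 ± 0.52 (adjusted p = 0.948). The list's level was 7.33, 7.11 and 6.71 in ERaKO E2, against 7.10, 6.95 and 7.35 in ERbKO E2, as the mean log2 signal of the 27 markers. In bulk tissue, fewer cells of a type and less RNA per cell cannot be told apart. The call of Vwf was lost without ERaKO E2 2 or 3 and without ERbKO E2 2 or 3 (highest adjusted p = 0.129).

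The other called lower genes were Heph, Cilp, Mettl7a1, Gria1, Pak3 and Daam1. Heph, the membrane ferroxidase hephaestin, was 6.18, 5.70 and 5.34 in ERaKO E2, against 6.92, 6.75 and 7.60 in ERbKO E2, a difference of -1.35 ± 0.26 (SE, n = 3 each, limma adjusted p = 0.0292). Cilp, which encodes a matrix protein of cartilage, was 4.05, 4.46 and 3.72 in ERaKO E2, against 7.14, 6.18 and 7.99 in ERbKO E2, a difference of -3.03 ± 0.54 (adjusted p = 0.0154). In neither gene did the groups overlap, and Cilp had -1.48 with placebo as well (adjusted p = 0.471). Mettl7a1, a methyltransferase-like gene, differed by -1.11 ± 0.22 (adjusted p = 0.0372). Gria1, a glutamate receptor subunit, differed by -2.06 ± 0.42 (adjusted p = 0.0415), with ERaKO E2 arrays between 2.63 and 2.90. Pak3, a p21-activated kinase, had a called probe set at -1.82 ± 0.34 (adjusted p = 0.02), while the further Pak3 probe set had -1.16 (adjusted p = 0.14). For Daam1, which acts in Wnt-dependent actin assembly, 1 of 3 probe sets was called, at -1.97 ± 0.35 (adjusted p = 0.0138), and the brightest had 0.07 (adjusted p = 0.935). The called Daam1 probe set was over 4 on the 3 ERbKO E2 arrays alone, so it was tested only through the group where it is high. The called Pak3 probe set was over 4 on ERbKO E2 and WT E2 arrays alone. Heph and Cilp lost their calls without ERaKO E2 2 or 3 or ERbKO E2 3 (highest adjusted p = 0.258 and 0.132). Mettl7a1 lost it without those or ERbKO E2 2 (0.258), Gria1 without every array except ERbKO E2 1 (0.295), Pak3 without ERaKO E2 3 or ERbKO E2 1 or 3 (0.115) and Daam1 without ERaKO E2 3 or ERbKO E2 3 (0.129).

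The genes with a probe set called higher in ERaKO E2 include Id2, Tgfbi and Smad7, which respond to transforming growth factor beta (TGF-beta) or bone morphogenetic proteins (BMP). Id2, an inhibitor of basic helix-loop-helix factors and a target of BMP signals, was 11.76, 11.31 and 11.14 in ERaKO E2, against 10.02, 9.40 and 10.29 in ERbKO E2. Its 3 tested probe sets all had positive differences, and 2 were called. The difference of the brightest was 1.50 ± 0.27 (SE, n = 3 each, limma adjusted p = 0.017), and it was no longer called after median centring. Tgfbi, a matrix protein induced by TGF-beta, had a called probe set at 11.34, 11.98 and 11.40 in ERaKO E2, against 9.60, 10.40 and 9.84 in ERbKO E2, a difference of 1.63 ± 0.30 (adjusted p = 0.0204). It is not the probe set that stands for Tgfbi, and the brightest one was not called. Smad7, an inhibitory Smad that TGF-beta induces, had a called probe set at 8.02, 7.76 and 7.17 in ERaKO E2, against 6.77, 5.29 and 5.48 in ERbKO E2. That difference was 1.80 ± 0.37 (adjusted p = 0.0455), while its brighter probe set had 0.06 (adjusted p = 0.958). The call of Id2 was lost without ERaKO E2 1 or 2 or ERbKO E2 2 (highest adjusted p = 0.149). Tgfbi lost it without ERaKO E2 2 or 3 or ERbKO E2 1 or 3 (highest 0.179), and Smad7 without each of the 6 arrays except ERbKO E2 1 (highest 0.316).

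Of 25 tested Wnt, BMP and TGF-beta modulators, Id2 was called higher, against 0.0975% of all named genes, and none was called lower. At an unadjusted p under 0.05, 10 were higher and 2 lower, where 10.1% of all named genes were higher and 2.28% lower at that p. The list's median difference was 0.40 (0.15 over all named genes), and 0.22 after median centring. With placebo its median was -0.0024. Fgfr2, a fibroblast growth factor receptor, had 1.05 ± 0.25 (limma adjusted p = 0.0991), Id3 had 1.30 ± 0.37 (adjusted p = 0.212) and Wif1, a secreted Wnt inhibitor, had 1.88 ± 0.55 (adjusted p = 0.232). None of these 3 passed the test.

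Matrix genes formed the next group. Fmod encodes fibromodulin, a small leucine-rich proteoglycan that binds collagen. Its called probe set was 8.90, 9.57 and 9.17 in ERaKO E2, against 7.31, 6.49 and 6.90 in ERbKO E2, a difference of 2.32 ± 0.39 (SE, n = 3 each, limma adjusted p = 0.00978). The other 5 Fmod probe sets had differences of 0.99 to 2.38, and none of them was called; the brightest had 2.02 ± 0.45 (adjusted p = 0.071). Fndc1, a fibronectin domain protein, was 7.93, 8.37 and 7.67 in ERaKO E2, against 6.85, 6.71 and 6.93 in ERbKO E2, a difference of 1.16 ± 0.22 (adjusted p = 0.0256). Cpxm2, a secreted carboxypeptidase-like protein, was 7.96, 8.67 and 7.94 in ERaKO E2, against 7.08, 5.90 and 6.15 in ERbKO E2, a difference of 1.81 ± 0.35 (adjusted p = 0.028). In each of the 3 genes every ERaKO E2 array was above every ERbKO E2 array. Fmod (highest adjusted p = 0.0784) and Fndc1 (0.215) lost their calls without ERaKO E2 2, ERbKO E2 2 or ERbKO E2 3, and Cpxm2 (0.227) without these or ERaKO E2 3.

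Of 50 tested extracellular matrix genes, none was called by the probe set that stands for it. At an unadjusted p under 0.05, 13 were higher and 3 lower, and 38 of the 50 differences were positive, as were 7041 of all 10260. The median was 0.39, and 0.20 after median centring, where 9 were higher and 5 lower at that p. It was 0.18 without ERaKO E2 2, where 6 were higher and 3 lower. The list level of that array stood out, with mean log2 signals of 9.67, 10.33 and 9.77 in ERaKO E2, against 9.67, 9.53 and 9.61 in ERbKO E2. With placebo the list's median difference was -0.09. Mfap4, a microfibril protein, was 9.75, 11.08 and 10.72 in ERaKO E2, against 8.91, 8.73 and 9.05 in ERbKO E2, with a difference of 1.62 ± 0.34 (limma adjusted p = 0.0542). Col14a1, a fibril-associated collagen, had 1.10 ± 0.28 (adjusted p = 0.149), and Hapln1, a hyaluronan link protein, had -1.01 ± 0.23 (adjusted p = 0.0902).

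Of 23 tested vasoactive genes 2 were called higher, against 0.0975% of all named genes, and the list's median difference was 0.30. Ace, the angiotensin-converting enzyme gene, was 9.46, 10.08 and 10.25 in ERaKO E2, against 8.87, 8.60 and 8.78 in ERbKO E2, a difference of 1.18 ± 0.23 (SE, n = 3 each, limma adjusted p = 0.0306). Rgs5, which dampens G-protein signals in mural cells, was 11.38, 11.60 and 11.52 in ERaKO E2, against 10.74, 9.94 and 9.55 in ERbKO E2, a difference of 1.42 ± 0.29 (adjusted p = 0.0392). For Rgs5 the ERaKO E2 arrays lay at or above the placebo arrays of both knockouts, which ran between 11.14 and 11.39, and the ERbKO E2 arrays lay below them. Both genes lost their calls after median centring. Each of the 2 also lost its call without ERaKO E2 2 or 3 and without ERbKO E2 2 or 3, with highest adjusted p of 0.203 for Ace and 0.298 for Rgs5. Of 29 smooth muscle markers none was called. Myh11, the smooth muscle myosin heavy chain, differed by 0.25 ± 0.25 (adjusted p = 0.751), and the list's median was 0.20 and 0.01 after median centring.

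Among the remaining called higher genes, Sntg2 and Adi1 lie on chromosome 12, which also carries Esr2. Sntg2 and the called Adi1 probe set read low in ERbKO aortas with either pellet. Sntg2, a syntrophin gene, was 7.07, 7.22 and 7.09 in ERaKO E2, against 5.07, 4.30 and 4.65 in ERbKO E2, a difference of 2.45 ± 0.43 (SE, n = 3 each, limma adjusted p = 0.0138). With placebo it was 6.68, 7.25 and 6.71 in ERaKO and 4.71, 3.92 and 5.20 in ERbKO, a difference of 2.27 (adjusted p = 0.0845). WT aortas averaged 7.00 ± 0.69 with E2 and 6.46 ± 0.66 with placebo (SD, n = 5 each), near the ERaKO level. Its call was lost without ERaKO E2 2 or 3 or ERbKO E2 2 or 3 (highest adjusted p = 0.101).

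Adi1, an enzyme of the methionine salvage pathway, had a called probe set at 6.10, 6.91 and 7.16 in ERaKO E2, against 4.12, 2.55 and 3.69 in ERbKO E2, a difference of 3.27 ± 0.62 (SE, n = 3 each, limma adjusted p = 0.0234). It had 3.16 with placebo (adjusted p = 0.114). Its other probe sets went apart: one had 0.69 (unadjusted p = 0.0182) and the other -0.54 (unadjusted p = 0.0423), so the gene as a whole has no single direction here. The call was lost without ERaKO E2 2 or 3 or ERbKO E2 2 or 3 (highest adjusted p = 0.203). A pair of called probe sets has no gene name, and so no chromosome here, at 3.00 ± 0.43 (adjusted p = 0.00162) and 3.20 ± 0.58 (adjusted p = 0.0177). Unlike Sntg2 and Adi1, both were also called with placebo, at 2.91 and 3.48 (adjusted p = 0.0175 and 0.0348). Of the named genes tested on chromosome 12, 3 of 361 were called by the probe set that stands for them (0.831%), against 26 of all 10260 (0.253%). These are Ap4s1, Id2 and Sntg2, none of them within 20 Mb of Esr2. Daam1 also lies on chromosome 12, with a called lower probe set at -1.97 that does not stand for it. Of 143 tested genes within 20 Mb of Esr2 none was called by the probe set that stands for it. At an unadjusted p under 0.05, 12 were higher and 3 lower, shares near those of all named genes (10.1% and 2.28%), and after median centring 6 were higher and 10 lower. Syne2, a nuclear envelope protein, had 1.07 ± 0.23 (adjusted p = 0.0582), Galnt16, a glycosyltransferase, 1.55 ± 0.34 (adjusted p = 0.0703) and Dact1, a regulator of Wnt signalling, 1.27 ± 0.28 (adjusted p = 0.0713). The part of DNA flanking the knocked-out gene in the differences on chromosome 12 was not tested.

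Next to Esr1 on chromosome 10, 1 of 61 tested genes within 20 Mb was called, against 0.253% of all 10260 named genes. At an unadjusted p under 0.05, 9 were higher and 3 lower, where 10.1% and 2.28% of all named genes were. After median centring 5 were higher and 5 lower at that p, and with placebo 7 were higher and 6 lower. The called gene was Rmnd1, a mitochondrial translation gene, at 5.10, 4.41 and 4.33 in ERaKO E2, against 3.71, 3.69 and 3.68 in ERbKO E2, a difference of 0.92 ± 0.19 (SE, n = 3 each, limma adjusted p = 0.0415). The 3 ERbKO E2 arrays were nearly equal and below the filter's value of 4. Rmnd1 passed that filter through ERaKO arrays alone, the 3 with E2 and 1 with placebo, so the call counts a gene tested only where it is high. With placebo its difference was 0.39 (adjusted p = 0.482). Rmnd1 held its call in 1 of the 6 removals, the one of ERaKO E2 3 (highest adjusted p = 0.194), and lost it after median centring and after quantile normalisation. Akap12, a scaffold protein of the same neighbourhood, had 1.57 ± 0.35 with E2 (adjusted p = 0.0707) and 0.91 with placebo, and Adat2, a tRNA deaminase subunit, had 1.68 ± 0.39 (adjusted p = 0.0902) and 1.77. What part the flanking DNA of the knockout has in them was not tested.

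The last called higher genes were Ap4s1, Prrg3 and Lrrn1. Ap4s1, a subunit of an adaptor complex, was 8.84, 8.84 and 8.76 in ERaKO E2, against 7.74, 7.59 and 8.04 in ERbKO E2, a difference of 1.02 ± 0.17 (SE, n = 3 each, limma adjusted p = 0.00825). It lost its call only without ERbKO E2 2 (adjusted p = 0.0641) among the 6 removals. With placebo it was 8.87, 9.11 and 8.70 in ERaKO and 8.17, 8.19 and 8.20 in ERbKO, which did not overlap either, a difference of 0.70 (adjusted p = 0.278). Prrg3, a vitamin K-dependent membrane protein, had 1.14 ± 0.20 (adjusted p = 0.0138), and Lrrn1, a leucine-rich repeat neuronal protein, 0.78 ± 0.16 (adjusted p = 0.048). Prrg3 lost its call without ERaKO E2 2 or ERbKO E2 2 or 3 (highest 0.111), and Lrrn1 without every array except ERaKO E2 1 (0.306). Lrrn1 also lost it after median centring and quantile normalisation, and it passed the filter only through the 3 ERaKO E2 arrays, the group where it is high.

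The same genotypes without hormone were compared with other mice. ERaKO placebo minus ERbKO placebo had 7 called probe sets (0.0343%), 4 higher and 3 lower. Of the 30 probe sets called lower with E2, 2 were called with placebo, both of them Esr1, and the median placebo difference of the 30 was -0.08. Of the 17 called higher, 2 were called with placebo, 15 had the same sign, and their median was 0.50. The sign was the same for 19 of the 30 called lower and for 13932 of all 20410 tested probe sets. Over all tested probe sets the median was 0.12, so a positive sign was the more common one with placebo too.

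**Figure D3:**
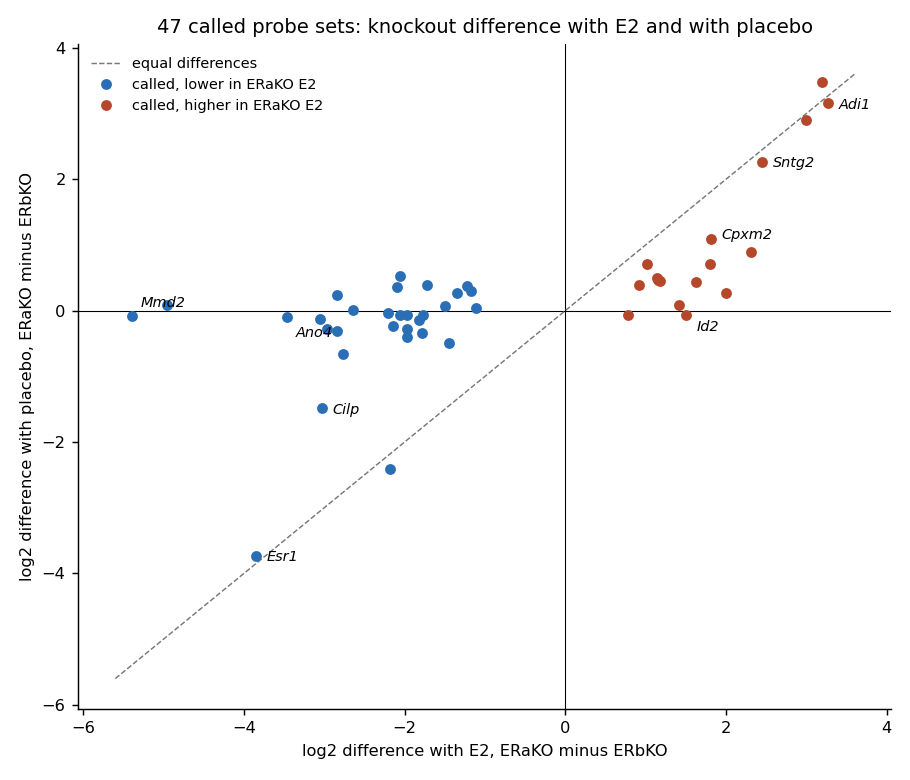
The 47 called probe sets, with the log2 difference ERaKO minus ERbKO with E2 across and the same difference with placebo upwards, in separate mice. Lower probe sets (blue) have a median of -0.08 with placebo, with Esr1 near the dashed line of equal differences, and among the higher ones (red) Sntg2 and Adi1 lie near that line.

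Whether the difference between the knockouts changed with hormone was tested as an interaction, the difference with E2 minus that with placebo. It was called for 9 probe sets (0.0441%), all negative. They were Mmd2 at -5.31 ± 0.47 (SE, limma adjusted p = 5.21e-06) and, by its further probe set, -2.70 (0.0316), Ano4 at -3.37 ± 0.35 (6.85e-05), and the probe set without a name at -5.05 ± 0.41 (2.57e-06). The others were a Vldlr probe set at -1.90 ± 0.28 (0.00874), Hrct1 at -1.57 ± 0.25 (0.0254), Stc1 at -2.64 ± 0.45 (0.0285), Tiparp at -2.45 ± 0.41 (0.0285) and a Ghr probe set at -2.11 ± 0.37 (0.0338). For every one of the 9 the ERbKO E2 arrays were the high ones. Ano4, Hrct1 and the further Mmd2 probe set passed the filter only through ERbKO E2 and WT E2 arrays, where they are high. Arrays of one genotype with the same replicate number deviated together, with r of 0.25 to 0.66. With genotype and replicate number as a random block 23 were called, 3 positive and 20 negative, the 9 among them. With that number as a fixed block 12 were called, all negative, and 7 of the 9 among them, Hrct1 (adjusted p = 0.0713) and Stc1 (adjusted p = 0.0879) being lost. Single arrays mattered here too: the count was 5 without ERaKO E2 1, ERaKO E2 2 or any 1 of the 3 ERbKO E2 arrays, and 4 without ERaKO E2 3. Of the placebo arrays, it was 4 without ERaKO placebo 1, 5 without ERaKO placebo 2 or 3, 11 without ERbKO placebo 1, 4 without ERbKO placebo 2 and 3 without ERbKO placebo 3.

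WT aortas, which share no array with the knockouts, give the hormone response when both receptor genes are present. Of named genes 53 were called between WT E2 and WT placebo (0.517%), 47 higher with E2 (0.458%) and 6 lower (0.0585%). Of the 16 genes called lower in ERaKO E2, 11 rose with E2 in WT (68.8%). These are Mmd2, Ano4, Stc1, Akr1c14, Akr1cl, Vwf, Heph, Vldlr, Tiparp, Hrct1 and Ghr. Among them Ano4, Akr1cl and Hrct1 exceeded the filter's value of 4 on ERbKO E2 and WT E2 arrays alone. They were tested only through the groups where they are high, so they are no independent part of this overlap. The other shared genes are not fully independent either. Both comparisons come from the same fit and use the same variance estimate for each probe set, so a low estimate favours a call in both. The differences themselves share no array. The overlap between separate fits was not tested. Of the 10 called higher, Rgs5 fell with E2 in WT, with -1.41 (limma adjusted p = 0.00237). The shared genes are 46.2% of the 26 genes called between the knockouts and 22.6% of the 53 called in WT.

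Read from the WT side, 43 of the 47 genes that rose in WT had a negative difference between the knockouts, against 3219 of all 10260 named genes. At an unadjusted p under 0.05, 31 of the 47 were lower and 0 higher, and 11 were called lower. The 11 include Ano4, Akr1cl and Hrct1, which passed the filter only through ERbKO E2 and WT E2 arrays. The p-values of the 47 also rest on the variance estimates that were used for the WT calls. The median difference of the 47 was -0.79, and -0.97 after median centring. With placebo their median was 0.09, with 0 lower and 4 higher at an unadjusted p under 0.05, where 1.76% of all named genes were lower and 9.19% higher. The 6 genes that fell in WT all had a positive difference with E2, with a median of 1.16, and 4 were higher at that unadjusted p. The number called lower among the 47 was 6 without ERaKO E2 3 or ERbKO E2 3, against 11 in full, and between 8 and 13 in the other removals, and the median stayed between -0.91 and -0.70.

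**Figure D4:**
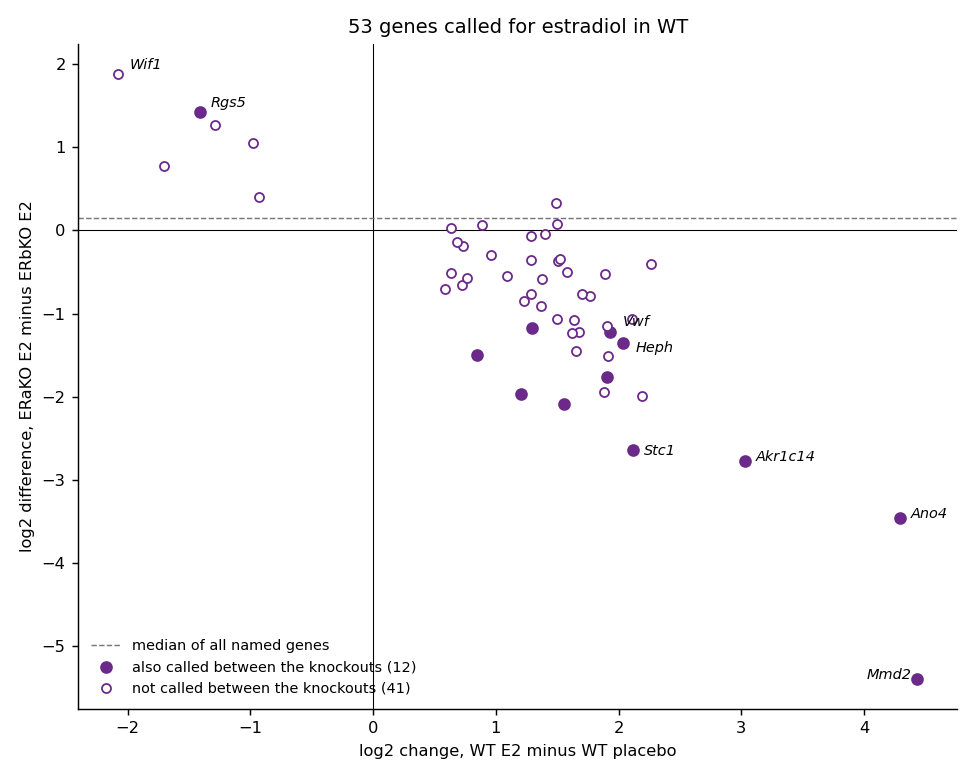
The 53 genes called for E2 in WT, with the log2 change WT E2 minus WT placebo across and the log2 difference ERaKO E2 minus ERbKO E2 upwards; filled points were also called between the knockouts. Of the 47 genes to the right of zero 43 lie below zero, and the 6 to the left lie above it.

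Not every WT responder differed between the knockouts. Galnt15, a glycosyltransferase gene that rose by 2.26 in WT (limma adjusted p = 1.83e-05), was 7.89, 7.38 and 7.67 in ERaKO E2, against 8.63, 7.88 and 7.65 in ERbKO E2. The arrays overlapped, and the difference was -0.41 ± 0.30 (adjusted p = 0.635). With placebo Galnt15 had 1.28 (adjusted p = 0.278). Lmo2, a transcription cofactor, had -0.37 ± 0.26 (adjusted p = 0.616) and rose by 1.50 in WT. Aff3, a nuclear protein gene, had -1.15 ± 0.32 (adjusted p = 0.207), Zmiz1, a transcriptional coregulator, -0.77 ± 0.23 (adjusted p = 0.239) and Gclc -1.08, all rising in WT. A difference that missed the threshold with 3 arrays a group is not shown to be absent.

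Of 16 tested genes listed as estrogen responsive in other tissues, Stc1 and Tiparp were called lower, against 0.156% of all named genes. The list's median was -0.04. Nrip1, a nuclear receptor corepressor, was 8.34, 8.24 and 8.12 in ERaKO E2, against 8.80, 9.24 and 9.34 in ERbKO E2, with a difference of -0.89 ± 0.33 (limma adjusted p = 0.33). Those arrays lay apart although the gene was not called. Of 15 interferon-stimulated genes none was called, and 7 were lower and 0 higher at an unadjusted p under 0.05, with a median of -0.48 (2.28% of all named genes were lower and 10.1% higher at that p). Leaving out ERaKO E2 3, ERbKO E2 1 or ERbKO E2 3 left 4 lower. After median centring 2 were called lower, as after quantile normalisation. Rtp4, a receptor transporter protein gene induced by interferon, was 4.58, 5.19 and 4.52 in ERaKO E2, against 7.19, 6.18 and 6.20 in ERbKO E2, with -1.76 ± 0.38 (limma adjusted p = 0.0627). Rsad2, an antiviral protein, had -1.94 ± 0.50 (adjusted p = 0.152), Bst2, a membrane protein that tethers virus particles, -1.31 ± 0.30 (adjusted p = 0.0902) and Oasl2 -1.12 ± 0.41 (adjusted p = 0.314). Of 10 genes listed as acute-phase and interleukin 6 family, a list that also holds the interleukin 4 receptor gene Il4ra, none was called. At an unadjusted p under 0.05, 3 were lower: Il4ra with -0.85 ± 0.23, Serpina3n with -1.07 ± 0.41 and Hp, haptoglobin, with -1.80 ± 0.74 (adjusted p = 0.191, 0.337 and 0.372).

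Genes of other tissues and of the moment of dissection varied between arrays. Of 17 tested striated muscle genes none was called, and their mean log2 signal was 7.71, 6.25 and 5.56 in ERaKO E2, against 6.46, 5.35 and 4.98 in ERbKO E2. Their median difference was 1.18, and 0.15 without ERaKO E2 1. Acta1, skeletal muscle actin, read 4.98, 4.05 and 4.38 in ERaKO E2 and 4.17, 4.22 and 4.17 in ERbKO E2 (difference 0.28 ± 1.10, limma adjusted p = 0.957), and Casq1, calsequestrin, had 1.27 ± 0.34 (adjusted p = 0.188). Of 21 immediate early genes none was called. Their mean was 10.30 in ERaKO E2 1, against 8.27 and 7.91 in the other ERaKO E2 arrays and 7.93, 8.61 and 7.88 in ERbKO E2, and their median of 0.49 was -0.04 without that array. Egr1, an early growth response factor, read 12.33, 9.97 and 9.65 in ERaKO E2, against 8.62, 9.83 and 8.69 in ERbKO E2 (difference 1.60 ± 0.67, adjusted p = 0.386).

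Fat surrounds the aorta. Of 15 brown adipocyte genes none was called, and their mean was 9.16, 7.95 and 8.92 in ERaKO E2, against 9.18, 7.74 and 8.70 in ERbKO E2. The second array of each knockout was the low one. The median difference was 0.14 with E2 and 1.06 with placebo. Of 18 white adipocyte genes none was called, with medians of -0.14 and 0.78. These medians moved with single arrays: leaving out 1 of the 6 E2 arrays gave -0.35 (without ERbKO E2 2) to 0.52 (without ERbKO E2 1) for brown and -0.55 (without ERbKO E2 2) to 0.28 (without ERaKO E2 2) for white adipocyte genes. Ucp1, the thermogenic uncoupling protein, had -0.16 ± 0.50 (limma adjusted p = 0.939) and Adipoq, adiponectin, -0.10 ± 0.47 (adjusted p = 0.964). Of 71 electron transport chain genes 0 were called and 0 passed an unadjusted p of 0.05 in either direction, and their median was -0.01 with E2 (-0.19 to 0.17 over the removals, the extremes without ERbKO E2 2 and ERaKO E2 2) and 0.59 with placebo. The medians of 31 gene lists are set side by side in the plot of lists. The part of fat, muscle or dissection in the results above was not tested.

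**Figure D5:**
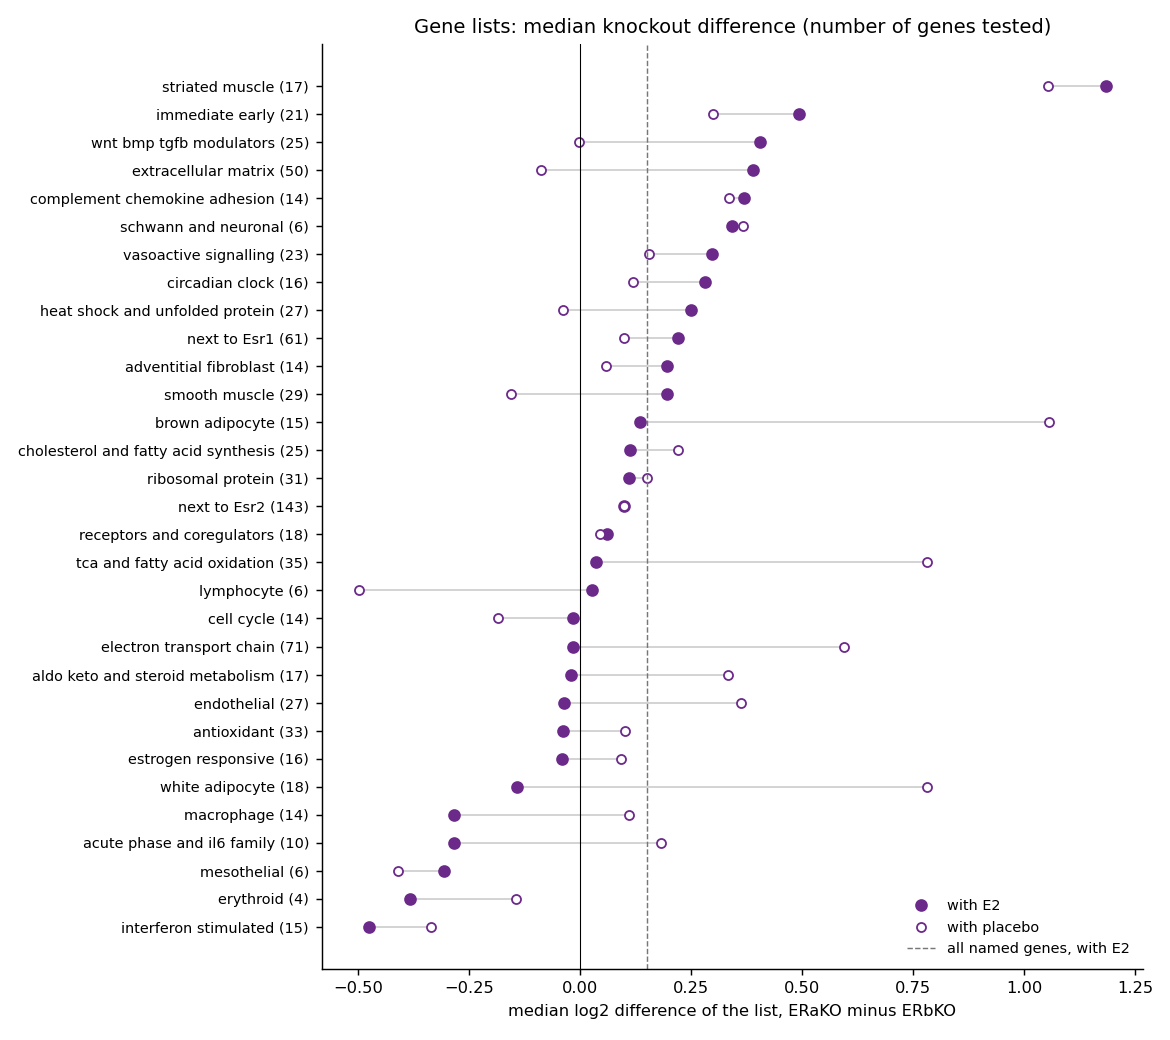
Median log2 difference ERaKO minus ERbKO of each of 31 gene lists, with E2 (filled) and with placebo (open), and in brackets the number of genes tested; the dashed line is the median of all named genes with E2, 0.15. Matrix genes and Wnt, BMP and TGF-beta modulators lie right of that line with E2 and near zero with placebo, and adipocyte and electron transport genes lie far right only with placebo.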

How the data were processed

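Expression was measured on Affymetrix mouse arrays, 1 aorta per array, from 5 ug of total RNA per the labels' protocols. The deposited log2 signals come from GCRMA, per the submitters' processing notes, which also name limma; versions are not given in the sources used here. The authors' deposited table gives a log2 fold change and an unadjusted p-value per probe set; a group-means fit of all 45101 probe sets matched both to within 4.83e-08. Then 64 controls were left out and 20410 passed the filter. A group-means model of all 22 arrays was fitted with limma 3.58.1 (lmFit, eBayes, two-sided) in R 4.3.3 and tested on simulated data. Gene names come from the platform annotation. The members, gene lists and tests were chosen with earlier results of these data known, and the named genes are the largest called differences, the leading members of each list, the leading WT responders and a few fixed genes. Replicate numbers did not pair the 2 knockouts (r of 0.18, 0.16 and 0.03 between same-numbered E2 arrays), and did pair E2 with placebo arrays within a knockout. The labels call the samples biological replicates. Arrays have no read depth; their number limits the precision. Alternatives are given in the closing section.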

Additional observations from a re-analysis of the deposited data

Results flagged for a closer look

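The 9 interaction calls were singled out because the difference between the knockouts itself differed between E2 and placebo by a test of that difference (limma). Their values were -5.05 for the probe set without a gene name, -5.31 and -2.70 for Mmd2, -3.37 for Ano4 and -1.57 for Hrct1. The others were -2.45 for Tiparp, -2.64 for Stc1, -1.90 for a Vldlr probe set and -2.11 for a Ghr probe set. Neither the Vldlr nor the Ghr probe set is the one that stands for its gene. The brightest Vldlr probe set had -1.69 and was not called (limma adjusted p = 0.121).

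Among 52 sets of 5 WT arrays checked for the 26 called genes, 1 had an array far from the other 4: Hrct1 on WT placebo 3, at 3.28. Chance gives such a gap in about 1 of 20 sets.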

How the results depend on the processing

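The main count of 47 was 33 to 65 under other filters, scalings, variance models, a random replicate block, 1 probe set per gene and the 12 knockout arrays alone. It was 80 with array weights, 11 with only the 6 arrays of the comparison, 18 at an adjusted p under 0.01, 87 at 0.10, and 20 to 100 when 1 array was left out. With replicate number as a fixed block it was 113 (54 higher, 59 lower), including all 47; a number shared across the knockouts is not a pairing here. The placebo count of 7 was 1 with no filter, 3 after quantile normalisation, 1598 with array weights, 0 with only its 6 arrays, 21 with the 12 knockout arrays, 15 with the fixed replicate block, 1 with 1 probe set per gene, 1 at 0.01 and 1 to 15 without 1 array. The interaction count of 9 was 5 with no filter, 4 with the knockout arrays alone, 23 with the random replicate block, 5 with 1 probe set per gene, 4 at 0.01 and 3 to 11 without 1 array. The weights ran from 0.23 to 3.76 between arrays; the cause of these shifts was not tested. Signs of 3 uncalled genes turned: with array weights Ucp1 had 0.0095 and Adipoq 0.0025, and over the removals Ucp1 ran from -0.58 to 0.36, Adipoq from -0.55 to 0.23 and Pecam1 from -0.33 to 0.061. The genes recomputed were those given in the report by their brightest probe set, without Smad7, Daam1, Pak3, Adi1 and Tgfbi. Mmd2, Ano4 and Vldlr kept their calls in all alternatives; Esr1, Stc1, Hrct1 and Tiparp lost theirs only with the 6 arrays alone. Signals at the bottom of the scale, as for Mmd2, Ano4 and Hrct1, limit the size of a difference that can be read.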
